A study of Mus musculus with 8 samples.

Results

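The two-pore domain potassium channels are the leak channels of the cell membrane, and 8 of their genes (Kcnk1, Kcnk2, Kcnk3, Kcnk4, Kcnk10, Kcnk12, Kcnk13 and Kcnk18) were followed through 8 RNA sequencing libraries of mouse lumbar dorsal root ganglia. The genes were taken by name from a table of read counts for 53801 genes, and all 8 passed the filter on low counts. The 6 other genes of the family in the table (Kcnk5, Kcnk6, Kcnk7, Kcnk9, Kcnk15 and Kcnk16) are given beside them. Per the labels' protocols, the left L4 spinal nerve of male C57BL/6J mice was tied with silk, and ganglia L3 to L5 of 3 mice were pooled for each library. Each injured-side library therefore also holds the ganglia L3 and L5, whose nerves were not tied. Days 1, 3 and 7 each have 1 injured-side library and 1 from the opposite, uninjured side (contralateral) of the same mice. Left and right libraries of another pool carry the label no injury. Their titles add WT, which the titles of the operated libraries do not. The labels do not say whether the mice of that pool had a sham operation.

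Each subunit of these channels carries a pair of pore loops, and a pair of subunits forms one channel. The channels pass potassium at rest, hold the membrane potential near the potassium equilibrium and so set how much current a sensory neuron needs to fire. Subfamilies differ in what gates them: stretch, heat and lipids open the TREK and TRAAK channels, acid closes the TASK channels, alkaline conditions open the TALK channels, and the calcium-dependent phosphatase calcineurin activates TRESK. In dorsal root ganglia the family is known for its part in the excitability of nociceptors and of neurons for touch and temperature.

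Read totals ran from 20488115 to 21652688 per library, and 3 reads, the upper limit behind a count of 0, were worth 0.139 to 0.146 CPM (counts scaled to the same library total). Such limits and the counting intervals given with single libraries cover counting error only. Pan-neuronal markers summed to between 16840 and 19058 CPM in every library, and Atf3, a transcription factor of axotomised neurons, was higher on the injured side in each operated pool. The contralateral library of day 1, which every day 1 side ratio uses, held the most marrow and blood cell markers. Those 10 genes summed to 1186 CPM there, against 320 to 809 CPM in the other libraries. Among them Mpo had 24.1 CPM there and at most 1.83 CPM elsewhere. The libraries labelled no injury went against the labelled sex: Xist had 4931 and 4129 reads there but no more than 3 in any operated library, and the Y-linked gene Kdm5d, with 280 reads or more in operated libraries, had 0. Those libraries also differed in Gabra2, chosen after its values were seen, at 46.8 and 47.4 CPM against 133 to 160 CPM in the operated libraries. The 6 skeletal muscle markers summed to 1026 CPM in the right no injury library and 140 CPM in the left, against at most 114 CPM elsewhere. Whatever sets that pool apart cannot be told apart from the absence of injury, so values resting on it are marked as such.

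Among the 8 listed channels, Kcnk18 and Kcnk1 fell on the injured side, each to about the same fraction of its uninjured level, and the other 6 did not pass the test in either direction. Of the 6 other family genes Kcnk16 rose, 3 were not called and 2 were too scarce to test. The bases just before the start of Kcnk1 and Kcnk16 are shown here because these genes moved in opposite directions and their upstream bases share a feature, the absence of CG dinucleotides, which would be printed in capitals. Both are RefSeq sequences on GRCm38.p6, read 5′ to 3′ along the gene, and cover the 250 bases before the RefSeq start.
Kcnk1, chr8:125994852-125995101, plus strand: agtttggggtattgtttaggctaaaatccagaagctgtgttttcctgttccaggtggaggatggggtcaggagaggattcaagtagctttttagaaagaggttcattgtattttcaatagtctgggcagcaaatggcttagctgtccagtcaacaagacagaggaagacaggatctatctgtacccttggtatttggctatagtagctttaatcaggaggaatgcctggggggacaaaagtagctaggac
Kcnk16, chr14:20269270-20269519, minus strand: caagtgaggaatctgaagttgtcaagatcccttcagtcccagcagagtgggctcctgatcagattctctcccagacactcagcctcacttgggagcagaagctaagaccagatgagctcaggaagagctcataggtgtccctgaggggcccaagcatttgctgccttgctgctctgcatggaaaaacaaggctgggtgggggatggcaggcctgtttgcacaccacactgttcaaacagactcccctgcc
Neither stretch held a CG, and their GC content was 44.4% for Kcnk1 and 54.8% for Kcnk16. Over all 32851 RefSeq windows of this kind the median was 6 CG dinucleotides and 52.4% GC, and 7.87% held no CG. RefSeq windows were found for 11 of the 14 family genes, and in the other windows the number of CG ran up to 28, at a start of Kcnk2. The window of Kcnk18, which also fell, held 5 CG. Among genes not called, Kcnk4 had 3 and another start of Kcnk2 had 2. A link between CG number and the changes was not tested.

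A set of 4 short motifs, chosen after the values were seen, were searched on both strands in the windows from 250 bases before to 50 after each start. The letters were TGANTCA for AP-1, TGACGTCA for the cyclic AMP response element (CRE), TTCNNNGAA for STAT factors and GGGCGG for the GC box. No window of Kcnk1, Kcnk18 or Kcnk16 held any of these letters. The RefSeq window of Kcnk18 lies inside the GENCODE gene model, whose start is further upstream, so it does not cover the bases before that start. A single AP-1 match lay before a start of Kcnk2 and a single STAT match before the start of Kcnk4, while 7.81% of all windows held the AP-1 letters, 8.30% the STAT letters and 1.79% the CRE letters. The GC box was in 7 of the 15 windows of family genes and in 35.7% of all windows.

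Kcnk18 encodes TRESK, the channel that calcineurin activates and that sensory neurons of the trigeminal and dorsal root ganglia express strongly. The gene lies on GRCm38 at chr19:59219214-59237374. On the injured side it stood at 7.57, 9.93 and 9.66 CPM for days 1, 3 and 7. On the contralateral side it stood at 12.2, 14.5 and 14.7 CPM on those days, and in the libraries labelled no injury at 14.6 CPM left and 14.8 CPM right. All 3 injured libraries lay below all 5 others, with the lowest value at day 1. The mean was 9.05 ± 1.29 CPM (SD, n = 3) on the injured and 13.8 ± 1.38 CPM (n = 3) on the contralateral side. The fall was 0.652-fold (log2 fold change -0.62 ± 0.08, SE; adjusted p = 0.00441, edgeR quasi-likelihood test on all 8 libraries, blocked by pool).

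The difference in Kcnk18 was about equal at each time point. Injured over contralateral, the log2 ratio was -0.65 at day 1 (95% counting interval -0.96 to -0.37), -0.58 at day 3 (-0.84 to -0.33) and -0.60 at day 7 (-0.87 to -0.35). The left over right ratio in the pool labelled no injury was -0.04 (-0.27 to 0.19). All 3 operated pools thus showed a lower injured side beyond counting error, and the uninjured pool did not. The call held without any 1 pool, with adjusted p between 0.00272 and 0.0378. It was lost when side was added as a further term (-0.58, adjusted p = 0.479), a fit in which side is measured by the left and right no-injury libraries alone.

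Kcnk1 encodes TWIK1, a weakly inward-rectifying leak channel with small currents. Its gene lies at chr8:125995170-126030685. At days 1, 3 and 7 the injured side had 72.4, 50.1 and 51.3 CPM of Kcnk1, and the contralateral side 86.2, 84.1 and 93.1 CPM. The libraries labelled no injury had 85.4 CPM left and 91.7 CPM right. Every injured library was again below every other library, and here day 1 was the mildest. The mean was 58.0 ± 12.5 CPM (SD, n = 3) on the injured and 87.8 ± 4.70 CPM (n = 3) on the contralateral side, a fitted 0.650-fold level (log2 -0.62 ± 0.13, SE; edgeR adjusted p = 0.0249).

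For Kcnk1 the ratio of the sides was -0.22 (log2) at day 1 (counting interval -0.32 to -0.12), -0.78 at day 3 (-0.90 to -0.68) and -0.86 at day 7 (-0.97 to -0.76). Without injury the left side was lower by a ratio of -0.12 (-0.21 to -0.02). The day 1 interval thus overlapped that of the uninjured pool, and those of days 3 and 7 did not. Without the day 1 pool the fall was -0.83 (adjusted p = 4.27e-05). Without day 3 it was -0.54 and without day 7 -0.51 (adjusted p = 0.124 for each), and without the pool labelled no injury -0.62 (adjusted p = 0.0585), so 3 of the 4 omissions ended the call. It also ended with no filter on low counts (adjusted p = 0.0503), with side as a further term (-0.50, adjusted p = 0.601) and against the libraries labelled no injury alone (-0.60, adjusted p = 0.107). Of its neighbours, Map3k21, 47730 bases away, was not called (log2 -0.23, adjusted p = 0.282), and Pcnx2, 96853 bases away, was lower on the injured side (log2 -0.48, adjusted p = 0.00886).

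**Figure D1:**
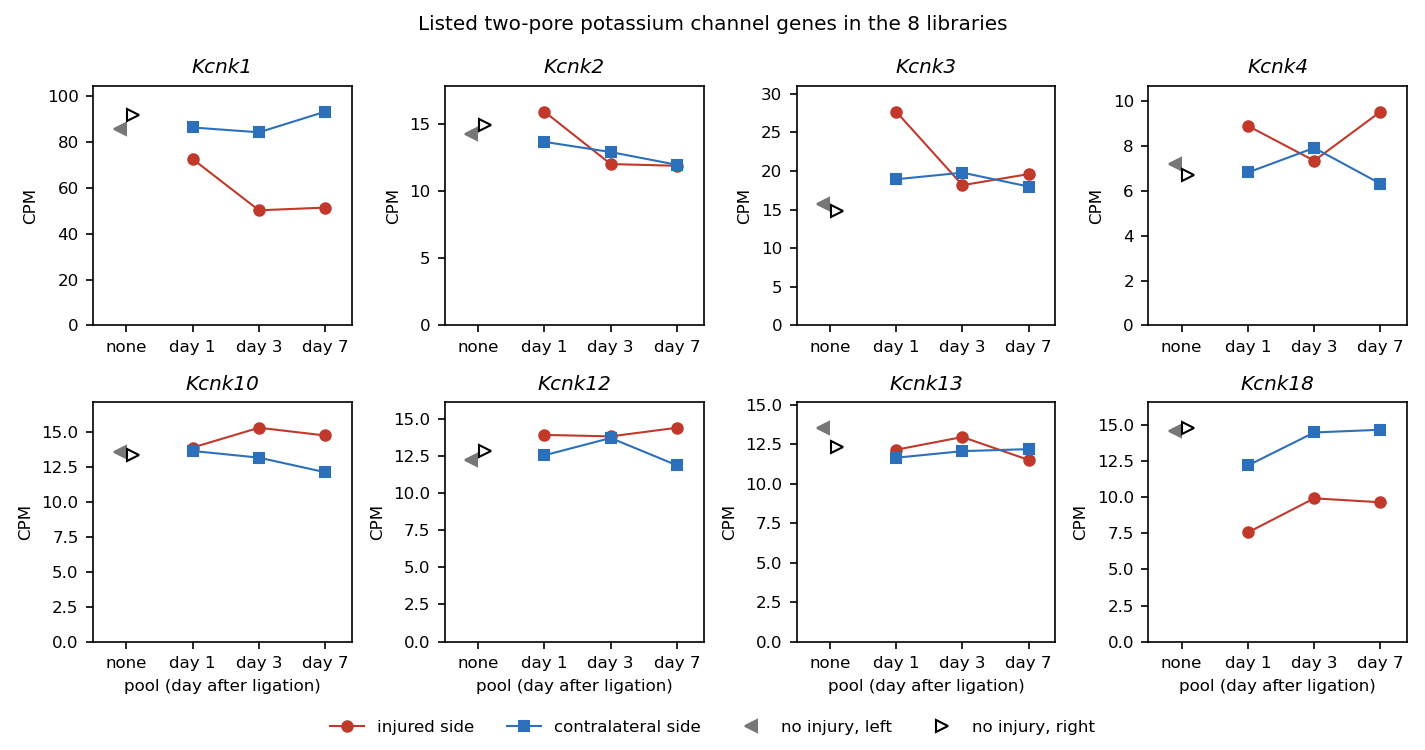
CPM of the 8 listed channels in each library, 1 panel per gene with its own vertical axis from 0, by state and day; each point is 1 library of 3 pooled mice, and lines join the same side across days, which are different mice. Injured points of Kcnk1 (50.1 to 72.4 CPM) and Kcnk18 (7.57 to 9.93 CPM) lie below all other points of their panels, while injured points of Kcnk2, Kcnk3, Kcnk4 and Kcnk13 overlap the rest.

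Of the 8 listed channels, 2 were lower and 0 higher on the injured side by edgeR, while over all 16244 genes tested 8.02% were lower and 10.1% higher. At an unadjusted p under 0.05 the counts were again 2 lower and 0 higher, as they were by DESeq2 and by limma-voom. Fitted log2 values were above 0 for 6 of the 8, and their median was 0.09 against 0.02 over all genes. How many of all genes had every injured library above or below every other library was not counted. Such a separation, where given for single channels, is therefore a description only. The levels are those of whole ganglia, in which fewer cells of a type and less RNA per cell cannot be told apart.

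Neuronal markers were measured beside the 2 falls. The summed CPM of 10 pan-neuronal markers was 17242 to 19058 on the injured and 18100 to 18559 on the contralateral side, with 3 of the 10 lower and 0 higher by edgeR (median log2 -0.25). The 10 nociceptor markers summed at days 1, 3 and 7 to 4033, 2580 and 2751 CPM (injured) and to 3847, 3808 and 3541 CPM (contralateral), with 3 lower and 0 higher (median log2 -0.44). The 10 large-fibre markers summed to 3445 to 4247 CPM on the injured and 4619 to 4843 CPM on the contralateral side, with 6 lower and 1 higher. Over all genes tested 8.02% were lower and 10.1% higher. No marker of these 3 lists was at 0 reads in any library. At day 1, when the nociceptor sum was not lower on the injured side, Kcnk18 already had its lowest value. Kcnk1 was lower on the injured side both at day 1, when that sum was not lower, and at days 3 and 7, when it was. The part of the neuronal markers in either fall was not tested.

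**Figure D2:**
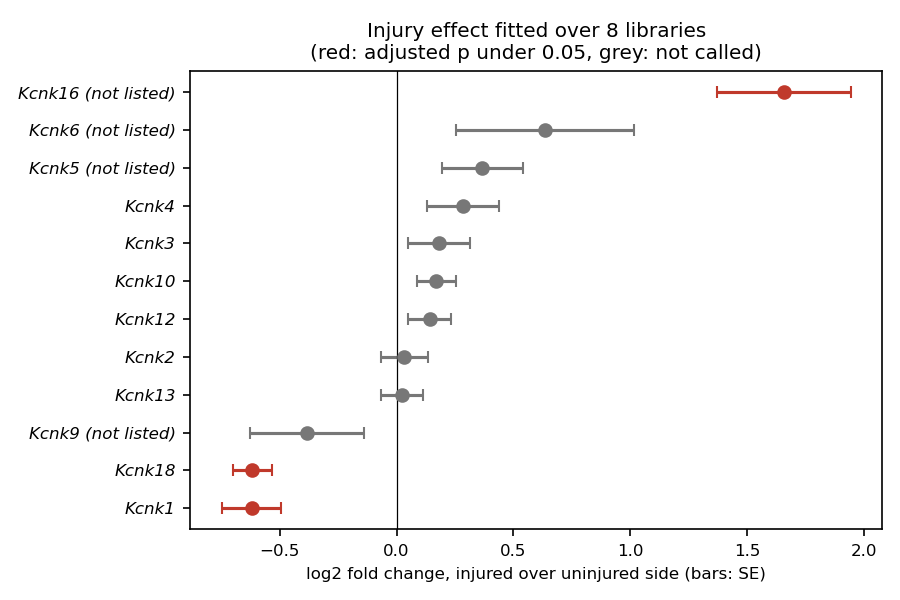
Fitted log2 fold change of injured over uninjured ganglia for each tested family gene, with bars of 1 SE from the edgeR fit over 8 libraries. Kcnk1 and Kcnk18 sit at -0.62, Kcnk16 at 1.66, and those 3 alone passed an adjusted p of 0.05.

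The mechanosensitive and heat-sensitive subfamily has 3 members, all on the list and none called. Kcnk2, which encodes TREK1 (chr1:189207930-189402273), had injured-side levels of 15.9, 12.0 and 11.9 CPM for days 1, 3 and 7. It had 13.7, 12.9 and 12.0 CPM on the contralateral side, and 14.2 and 14.9 CPM without injury. The groups overlapped and the highest library was that of the injured side at day 1 (fitted log2 0.03 ± 0.10, SE; adjusted p = 0.841). The sign of this value was negative without the day 1 pool (-0.08).

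Kcnk10, which encodes TREK2 (chr12:98429437-98578310), had 13.9, 15.3 and 14.7 CPM on the injured side. The contralateral levels were 13.6, 13.1 and 12.1 CPM, and those without injury 13.5 and 13.3 CPM. The injured libraries were the 3 highest of the 8, by a narrow margin at day 1, and the difference of 0.17 ± 0.08 (log2, SE) did not pass (adjusted p = 0.190). Its side ratio was 0.06 at day 1, 0.18 at day 3 and 0.28 at day 7, and only the interval of day 7 (0.04 to 0.52) lay above 0.

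Kcnk4, which encodes TRAAK, known from the nodes of myelinated axons (chr19:6923966-6934515), had 8.88, 7.33 and 9.52 CPM on the injured side. Contralateral values were 6.81, 7.90 and 6.31 CPM, and those without injury 7.18 and 6.70 CPM. Days 1 and 7 were higher on the injured side, with side ratios of 0.41 (0.09 to 0.74) and 0.58 (0.27 to 0.91), and day 3 was not (-0.15, -0.47 to 0.17). The fitted value was 0.29 ± 0.15 (log2, SE; adjusted p = 0.232). Exons of Kcnk4 share 587 bases with Catsperz on the same strand, a gene at 4.29 to 8.19 CPM here, and the sources used here do not give how reads fitting both were counted.

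The acid-sensitive channel TASK1 is encoded by Kcnk3 (chr5:30588170-30625271). Its injured-side level was 27.7, 18.2 and 19.6 CPM for days 1, 3 and 7. On the contralateral side it was 18.9, 19.8 and 17.98 CPM, and 15.7 and 14.8 CPM without injury. The day 1 injured library stood above the 7 others, with a side ratio of 0.58 (0.39 to 0.77), while the ratios of day 3 (-0.16, -0.37 to 0.04) and day 7 (0.12, -0.08 to 0.32) had intervals across 0. Over all pools the value was 0.18 ± 0.13 (log2, SE; adjusted p = 0.374), and without the day 1 pool it was -0.02. Kcnk3 exons share 229 bases with Gm9899 on the opposite strand (1.89 to 3.56 CPM), and with the strand setting unknown from the sources used here the reads of the pair cannot be told apart.

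All 6 operated libraries had more Kcnk3 than the pool labelled no injury. The injured library of day 1 was 1.81-fold over the summed no-injury reads (counting interval 1.62 to 2.03), and the contralateral libraries were 1.24-fold, 1.30-fold and 1.18-fold over them. Contralateral against no injury, the fitted difference was 0.32 ± 0.12 (log2, SE), with an edgeR adjusted p = 0.507, over 3 libraries against 1 summed sample. This comparison carries the limits of the pool labelled no injury.

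The THIK channels, named for their inhibition by halothane, were not called. Kcnk12 encodes THIK2, a subunit largely silent on its own (chr17:87745801-87797994), and had 13.9, 13.8 and 14.4 CPM on the injured side. Contralateral values were 12.5, 13.7 and 11.9 CPM, and those without injury 12.2 and 12.8 CPM. As for Kcnk10, the 3 injured libraries were the highest, but day 3 exceeded its contralateral library only slightly in CPM and had a side ratio of -0.03 after normalisation (fitted 0.14 ± 0.09, SE; adjusted p = 0.315). Kcnk13 encodes THIK1, known as the main leak channel of microglia (chr12:99964499-100062682). Its values were 12.2, 13.0 and 11.5 CPM on the injured side, 11.6, 12.1 and 12.2 CPM on the contralateral side and 13.5 and 12.3 CPM without injury. They overlapped throughout, and the fitted value was 0.02 ± 0.09 (log2, SE; adjusted p = 0.884). Macrophage markers in the same libraries ranged widely, with a summed level of 86.7, 404 and 394 CPM on the injured side against 136, 108 and 195 CPM on the contralateral side.

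**Figure D3:**
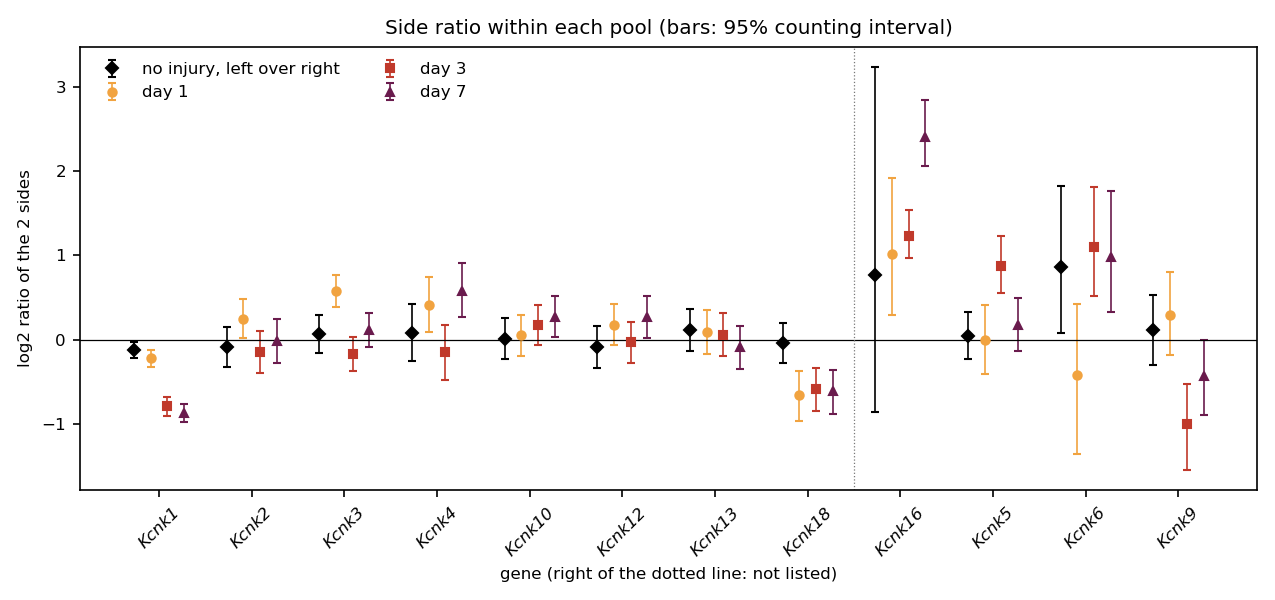
Log2 ratio of the injured over the contralateral library at each day, and of left over right in the pool labelled no injury, for the tested family genes, with 95% counting intervals of 2 libraries and no replicate error. Kcnk18 lies near -0.6 at each day, Kcnk1 goes from -0.22 at day 1 to -0.86 at day 7, and Kcnk16 from 1.02 to 2.41.

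Kcnk16, an alkaline-activated channel (TALK1) best known from pancreatic islets, is not on the list but had the largest fitted change of the family genes tested. It lies at chr14:20261376-20269199. Without injury it had 0.386 CPM left and 0.185 CPM right, which is 8 and 4 reads. The injured side had 2.05 CPM at day 1, 16.9 at day 3 and 17.4 at day 7, and the contralateral side 0.986, 6.92 and 3.20 CPM. In each operated pool the injured side was higher, and all 6 operated libraries were above both libraries labelled no injury. The contralateral library of day 3 exceeded the injured library of day 1, so the states overlap across days.

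The injury effect of Kcnk16 was 3.16-fold (log2 1.66 ± 0.29, SE; edgeR adjusted p = 0.0138). It was the only one of the 4 tested other family genes to be called, also by DESeq2 and limma-voom. The side ratio was 1.02 at day 1 (counting interval 0.30 to 1.92), 1.24 at day 3 (0.97 to 1.53) and 2.41 at day 7 (2.06 to 2.83). Left over right without injury was 0.77 (-0.85 to 3.23), an interval that its few reads leave wide. Without the day 7 pool the effect was 1.18 (adjusted p = 0.0555). The call was also lost without the pool as a block (2.35, adjusted p = 0.159), with side as a further term (0.63, adjusted p = 0.889) and against the libraries labelled no injury alone (5.38, adjusted p = 0.0587).

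Over the 12 summed reads of the pool labelled no injury, Kcnk16 stood 7.24-fold higher in the injured library of day 1, 59.7-fold at day 3 (counting interval 33.7 to 117) and 61.6-fold at day 7 (34.8 to 120). In the contralateral libraries it was 3.48-fold, 24.5-fold and 11.3-fold over them. The fitted contralateral difference of 3.70 ± 1.66 (log2, SE) did not pass by edgeR (adjusted p = 0.710) but did by DESeq2 (3.73, adjusted p = 0.00980). Without the day 1 contralateral library the edgeR value was 4.15, from 2 libraries against the 12 summed reads. None of its neighbours Nudt13, Ecd and Fam149b, 25498 to 78963 bases away, was called, with log2 values of 0.18, 0.05 and -0.09 (adjusted p = 0.199, 0.599 and 0.416). Kcnk5, 79567 bases away, is the nearest family gene.

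Kcnk5 encodes TASK2, another alkaline-activated channel. It had 4.88, 10.2 and 8.52 CPM on the injured side, 4.98, 5.38 and 7.48 CPM on the contralateral side and 10.5 and 10.02 CPM without injury. The low libraries were both of day 1 and the contralateral one of day 3 (fitted injury effect 0.37 ± 0.17, SE; adjusted p = 0.174). The 6 fibroblast markers summed to 706, 1975 and 1520 CPM on the injured side for days 1, 3 and 7, to 481, 665 and 1047 CPM on the contralateral side, and to 1420 and 1262 CPM without injury. They were low in the same 3 libraries as Kcnk5, and none was at 0 reads. By edgeR 3 of the 6 were higher on the injured side, against 10.1% of all genes. The part of these markers in the Kcnk5 values was not tested.

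Kcnk6, which encodes TWIK2, a potassium exit path of macrophages, had 0.976, 3.31 and 2.51 CPM on the injured side for days 1, 3 and 7, and 0.877 to 1.69 CPM in the 5 other libraries. The 2 high libraries were those in which the macrophage markers were highest. Of these 10 markers, none at 0 reads, edgeR called 1 higher on the injured side, against 10.1% of all genes. Fitted log2 values were above 0 for all 10, with a median of 1.06. The part of those markers was not tested. Kcnk9, which encodes the acid-sensitive TASK3, had 3.81, 2.41 and 3.55 CPM on the injured side, 3.15, 4.77 and 4.80 CPM on the contralateral side and 5.01 and 4.57 CPM without injury. Neither was called over all pools, with 0.64 ± 0.38 (log2, SE; adjusted p = 0.278) for Kcnk6 and -0.38 ± 0.24 (adjusted p = 0.303) for Kcnk9. Without the day 1 pool, Kcnk6 at 1.09 (adjusted p = 0.0317), Kcnk5 at 0.53 (0.0450) and Kcnk9 at -0.72 (0.0307) passed. In that setting many more genes passed in general, with 2382 of all genes higher and 2287 lower, against 1644 and 1302 over all pools. Kcnk15 had 0 or 1 read per library, below the 3 reads that a count of 0 allows. Kcnk7 had 1, 0 and 0 reads on the injured side for days 1, 3 and 7. It had 2, 2 and 6 reads on the contralateral side and 3 in each library without injury. Its highest value, 0.282 CPM in the contralateral library of day 7, lay above that limit. Neither gene was tested.

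**Figure D4:**
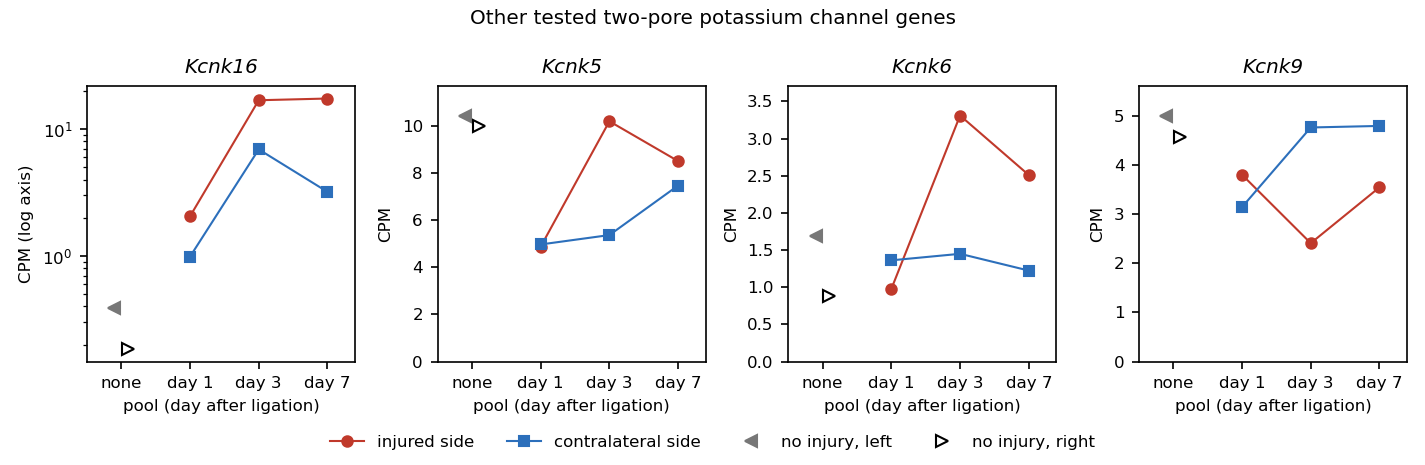
CPM of the 4 other tested two-pore channel genes by state and day, 1 point per library, with a log axis for Kcnk16 and axes from 0 for Kcnk5, Kcnk6 and Kcnk9; lines join the same side across days. Kcnk16 goes from at most 0.386 CPM without injury to 16.9 and 17.4 CPM in the injured libraries of days 3 and 7, and Kcnk6 is highest in the same libraries.

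The change of the injury effect with time was fitted as a slope per doubling of days. By edgeR 0 of the 16244 genes passed in either direction (0% higher and 0% lower), against 1299 at an unadjusted p under 0.05, and DESeq2 called 37 higher and 12 lower. None of the 8 listed channels passed by edgeR, DESeq2 or limma-voom, and 1, Kcnk1, had an unadjusted p under 0.05. Its slope was -0.24 ± 0.06 (log2 per doubling, SE; edgeR adjusted p = 0.332), and it passed without the day 3 pool (-0.23, adjusted p = 0.0190) and without the day 7 pool (-0.36, adjusted p = 0.0156), in fits with 1 residual degree of freedom each. For Kcnk18 the slope was 0.02 ± 0.08, for Kcnk3 -0.18 ± 0.10 and for Kcnk16 0.51 ± 0.19 (adjusted p = 0.979, 0.707 and 0.600). Without day 7, which leaves days 1 and 3 and likewise 1 residual degree of freedom, Kcnk3 passed with -0.47 (adjusted p = 0.0212).

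Set against the pool labelled no injury, the contralateral ganglia showed 0 of the 8 listed channels called in either direction by edgeR, DESeq2 or limma-voom, where edgeR called 0.125% of 16747 genes higher and 0.155% lower. At an unadjusted p under 0.05 there was 1, Kcnk3. Kcnk1 differed by -0.01 ± 0.09 and Kcnk18 by -0.08 ± 0.15 (log2, SE; edgeR adjusted p = 0.996 and 0.937). The fitted contralateral difference of the 2 channels that fell thus lay within the spread of this comparison. Over the summed no-injury reads, contralateral Kcnk18 was 0.830-fold at day 1, with a counting interval of 0.715 to 0.960 that lay below 1. At day 3 it was 0.985-fold and at day 7 0.998-fold. Kcnk5 was lower by a value of -0.78 ± 0.23 (log2, SE; edgeR adjusted p = 0.352). Without the day 1 contralateral library Kcnk5 was at -0.66 (edgeR adjusted p = 0.0127), in a fit with 1 residual degree of freedom.

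Levels of different genes were compared per kilobase of merged exons. Kcnk1 was the most abundant family gene in each of the 8 libraries, with a mean of 34.4 ± 7.71 CPM per kb (SD over 8 libraries). Kcnk12 followed with 6.67 ± 0.46 CPM per kb, and then Kcnk3 with 4.80 ± 0.98, Kcnk13 with 3.95 ± 0.22, Kcnk18 with 3.53 ± 0.82 and Kcnk2 with 2.72 ± 0.30 CPM per kb. The lowest of the list were Kcnk4 with 1.70 ± 0.25 and Kcnk10 with 1.56 ± 0.11 CPM per kb. These means cover all states, and by the mean of each state Kcnk18 had another place in each. Without injury its mean of 4.24 CPM per kb lay above those of Kcnk13 (4.16) and Kcnk3 (3.84). On the contralateral side Kcnk18 had 3.98, between Kcnk3 (4.75) and Kcnk13 (3.85), and on the injured side 2.61, just below Kcnk2 (2.68). Single libraries reversed parts of these orders. Kcnk18 lay below Kcnk13 in the left no injury library (4.21 and 4.35) and the contralateral library of day 1 (3.52 and 3.74). On the injured side it lay below Kcnk2 at day 1 only (2.18 and 3.22). It lay above Kcnk2 at day 3 (2.86 and 2.43) and day 7 (2.78 and 2.40). Apart from Kcnk1, neighbours in the order of the means over all 8 libraries overlapped in their ranges, except that Kcnk2 and Kcnk4 did not. Among the other genes Kcnk16 had 2.53 ± 3.03, Kcnk5 2.27 ± 0.71, Kcnk6 0.403 and Kcnk9 0.326 CPM per kb. With the longest transcript as the length, Kcnk4 rose to 2.99, Kcnk2 to 3.76 and Kcnk10 to 1.84 CPM per kb, which puts Kcnk2 above Kcnk18.

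Summed over all 14 family genes, the level was 62.2, 57.9 and 58.6 CPM per kb on the injured side for days 1, 3 and 7. It was 65.3, 68.8 and 69.97 CPM per kb on the contralateral side, and 67.1 and 69.2 CPM per kb without injury. The 3 injured libraries were the lowest. The share of Kcnk1 was 52.1%, 38.7% and 39.2% on the injured side against 54.7% to 59.5% in the 5 other libraries. Kcnk16 held 12.3% and 12.5% of the sum on the injured side at days 3 and 7, where it ranked 2 among the 14 genes, and at most 0.242% without injury, where it ranked 12 and 13.

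**Figure D5:**
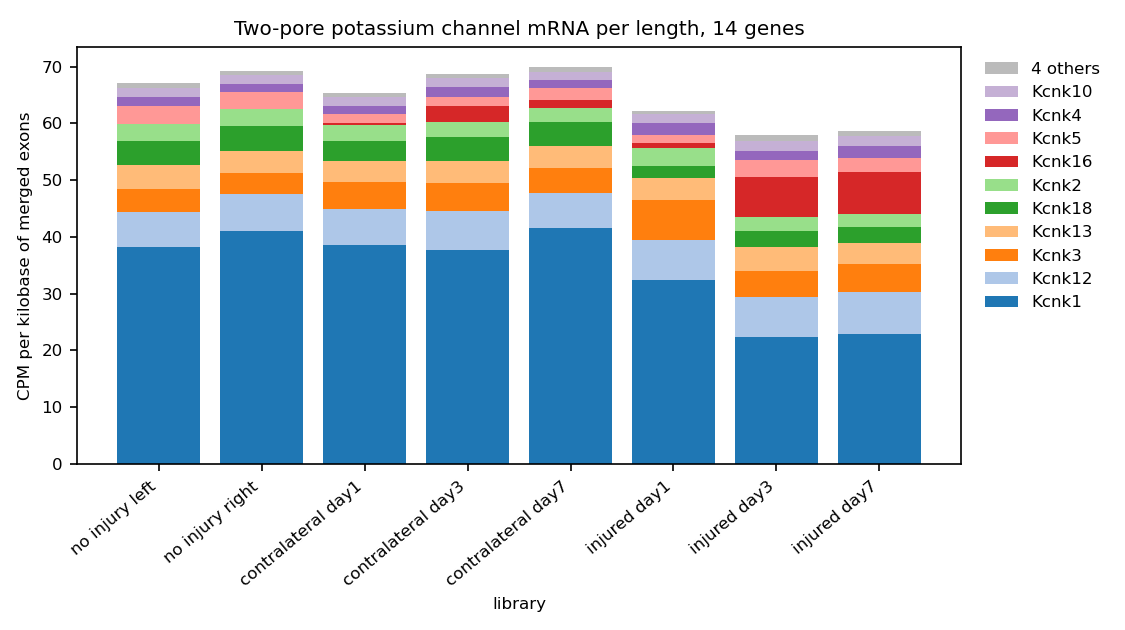
Stacked bars of the level of each family gene in CPM per kilobase of merged exons (vertical axis from 0), 1 bar per library, with Kcnk6, Kcnk7, Kcnk9 and Kcnk15 combined in grey. Kcnk1 fills 52.1%, 38.7% and 39.2% of the injured bars and at least 54.7% of the others, and Kcnk16 is a thick band in the injured bars of days 3 and 7.

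Genes of proteins that bind or regulate these channels were also counted. Of 22 tested, 1 rose and 1 fell by edgeR, with a median log2 of -0.04, where 10.1% of all genes were higher and 8.02% lower, so the count is near that background. S100a10, which encodes p11, a partner of TASK1 in its transport to the membrane, rose by 0.41 ± 0.10 (log2, SE; adjusted p = 0.0270). Ppp3r1, the regulatory subunit of calcineurin, the phosphatase that activates TRESK, fell by 0.23 on the log2 scale (SE 0.06; adjusted p = 0.0433). Its catalytic subunit gene Ppp3ca had -0.29 ± 0.09 (adjusted p = 0.0673), and Senp1, a protease that removes SUMO, had 0.30 ± 0.09 (adjusted p = 0.0603). The calls of S100a10 and Ppp3r1 were each lost without the day 3, the day 7 or the no injury pool, with adjusted p of 0.0730 to 0.179, and that of Ppp3r1 also without the pool block (adjusted p = 0.0795). Against the libraries labelled no injury alone they had adjusted p of 0.0866 and 0.362. DESeq2 called 1 of the 22 higher and 3 lower.

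Genes of other conductances active at rest were given beside the channels. Of 15 tested in a list of 16, edgeR called 7 lower and 0 higher, with a median log2 of -0.50, while 8.02% of all genes tested were lower and 10.1% higher with a median of 0.02. At an unadjusted p under 0.05 there were 9 lower and 1 higher, and DESeq2 gave 8 and 0. Kcnj11, the pore of the ATP-sensitive potassium channel, fell by 1.157 on the log2 scale (SE 0.17; adjusted p = 0.00570), and Kcnj3, a G protein-gated channel subunit, fell by 0.56 (SE 0.09; adjusted p = 0.00717). Kcnj4, an inward rectifier, fell by 0.95 (SE 0.17; adjusted p = 0.0109) and Kcnt2, a sodium-activated channel, by a value of -0.50 ± 0.11 (adjusted p = 0.0217). Without the day 7 pool Kcnj11, Kcnj4 and Kcnt2 had adjusted p of 0.0523, 0.0760 and 0.0838. Without day 3 or without the no injury pool Kcnt2 had 0.0925 and 0.0623, and Kcnj4 had 0.0993 against the libraries labelled no injury alone. With side as a further term S100a10, Ppp3r1, Kcnj11, Kcnj3, Kcnj4 and Kcnt2 all lost their calls (adjusted p of 0.492 to 0.774).

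Patterns most like those of the channels were looked up by Pearson's r of normalised log2 CPM over the 8 libraries, among 13718 protein-coding genes of at least 1 CPM on average. The libraries come in 4 pools and share them, so these are descriptions. For Kcnk18 the nearest were Siah3 (r = 0.992), Otoa (0.987) and Pou4f2 (0.984), and for Kcnk1 Ublcp1 (0.992), Kank4 (0.992) and Slc25a25 (0.990). Kcnk16 went most closely with Gm5152 (0.991), the neuropeptide gene Gal (0.987) and Crh (0.986). Kcnk3 was nearest to Slc20a1 (0.980), Kcnk2 to Cyp51 (0.978), Kcnk12 to Vash1 (0.971), Kcnk4 to Cacna1b (0.956), Kcnk13 to Car5b (0.955) and Kcnk10 to Zfp513 (0.954).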

How the data were processed

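The authors deposited 1 table of whole-number read counts per gene, used as deposited. Per the submitters' processing notes, which give no roles, the tools were cutadapt 1.16, STAR 2.5.4a, featureCounts 1.6.3 and DESeq2, with GRCm38; the sources used here do not give the strand setting or the handling of multi-gene reads. Names and positions came from GENCODE M21 (53706 of 53801 IDs matched), promoter windows from RefSeq. Tests used edgeR 4.0.16 in R 4.3.3 (robust quasi-likelihood F test, two-sided, TMM, filterByExpr at a minimum of 10 counts, Benjamini-Hochberg over all genes at 0.05), with limma 3.58.1 and DESeq2 1.42.0 as alternatives, and were tested on simulated counts. The injury effect had the pool as a block over 8 libraries; the trend added injured state by centred log2 day. The contralateral comparison set 3 libraries against the summed no-injury libraries, assumed to vary alike. The error behind each p-value of the injury effect is the spread among pools, time included. In the trend it is the spread left around the fitted slope, and in the contralateral comparison the spread of the 3 contralateral libraries. Pairing comes from the design, in which mice are their own controls; deviations of the sides correlated by 0.249, -0.0618 and 0.356 within the day 1, 3 and 7 pools. Side ratios are log2 CPM with a prior count of 2 and exact binomial 95% intervals. All family genes were named, with up to 4 genes per list of lowest p and the 3 genes of highest r per channel. Members and lists were chosen with earlier results of these data known. Alternatives changed normalization, filter, tool, block, side, controls, time scale, length and pools left out.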

Additional observations from a re-analysis of the deposited data

How the results depend on the processing

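With 1 pool a day, day and pool cannot be told apart, and the pool labelled no injury limits each comparison that uses it. The cause of the changes below was not tested. All genes called higher and lower in the injury effect became 6 and 0 once side entered the fit and 703 and 442 against the no-injury libraries alone; leaving out 1 pool gave 475 to 2382 and 156 to 2287. Listed channels called lower were 1 with no filter, 0 with the side term and 1 against the no-injury libraries alone, and 1 to 2 without 1 pool. Other family genes called higher were 0 without the block, with the side term and against the no-injury libraries alone, and 0 to 3, with 0 to 1 lower, without 1 pool. Without the day 1 and no-injury pools together, chosen after seeing the data, 2 other family genes were higher.

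Signs changed for uncalled values, among them Kcnk5 and Kcnk6 with 0.37 and 0.64 in the main comparison. In the injury effect Kcnk2 was -0.028 and Kcnk13 -0.020 without the block, Kcnk13 -0.10 and Kcnk6 -0.29 with the side term, and Kcnk2 -0.13, Kcnk13 -0.079 and Kcnk5 -0.38 against the no-injury libraries alone. Leaving out pools gave -0.081 to 0.12 for Kcnk2, -0.024 to 0.35 for Kcnk3 and -0.014 to 0.072 for Kcnk13 with 1 pool left out. With days 3 and 7 alone these were -0.082, -0.025 and -0.015.

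For the trend, 9 genes were higher with RLE normalization, 29 higher and 3 lower with no filter, and 37 and 12 by DESeq2; without 1 pool it was 0 to 644 and 0 to 570, and 0 to 2 listed channels lower. On a linear day scale Kcnk5 was at -0.0050. Without 1 pool the slopes ran from -0.25 to 0.12 for Kcnk2, -0.47 to 0.24 for Kcnk3, -0.0073 to 0.044 for Kcnk18, -0.36 to 0.61 for Kcnk4, -0.14 to 0.26 for Kcnk12, -0.56 to 0.55 for Kcnk5, -0.087 to 1.00 for Kcnk6 and -0.84 to 0.49 for Kcnk9.

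Contralateral against no injury, 276 genes were higher and 422 lower with no filter, 87 and 75 by DESeq2, and 69 lower by limma-voom; without 1 contralateral library it was 13 to 447 and 3 to 507. Other family genes called were 1 lower with no filter, 1 higher by DESeq2, and 0 to 1 each way without 1 library. With the left no-injury library alone Kcnk1 was 0.050, Kcnk4 -0.024 and Kcnk6 -0.31, and with the right alone Kcnk12 was -0.016. Without 1 library Kcnk1 ran from -0.049 to 0.015, Kcnk4 from -0.081 to 0.095, Kcnk12 from -0.041 to 0.074, Kcnk10 from -0.078 to 0.0045 and Kcnk9 from -0.27 to 0.0094.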
